A study of Mus musculus with 2 samples.

Results

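Cycling macrophages were taken as barcodes that carried macrophage complement RNA together with RNA of proliferation genes. A macrophage base was formed first, of barcodes with at least 1 unique molecular identifier (UMI, a tag that marks each captured RNA molecule) of Ptprc, the gene of the pan-leukocyte antigen CD45. Base barcodes also held at least 3 UMIs summed over C1qa, C1qb and C1qc, the complement genes of mature macrophages, and none of Cd3d, Cd3e and Trac. Members were the base barcodes with at least 3 UMIs summed over Mki67, Top2a, Cdk1, Birc5 and Ccna2 and at least 3 such UMIs per 10000. The rule found 875 members among 3406 base barcodes in control tumours and 907 among 4336 in sitagliptin tumours. Members were thus selected on measured RNA of these 5 division genes, Ptprc, C1q and T cell genes. These were 1782 members of 7742 base barcodes, out of 18460 barcodes in all.

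Both libraries were droplet single-cell RNA-seq libraries of CD45+ cells, enriched with magnetic beads from tumours of wild-type mice carrying MC38-OVA, colon carcinoma cells of mouse origin that make ovalbumin. The mice of one group ate a control diet and those of the other food with sitagliptin, a drug that blocks the peptidase DPP4. Each diet had 1 library. The number of mice per library, their age and the dose do not appear in the labels. No comparison between the libraries therefore has a replicate check, no p-value is given, and each interval is a 95% interval for counting error only.

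Macrophages of adult tissue can enter the cell cycle, chiefly under colony stimulating factor 1 signalled through the receptor Csf1r, and in tumours local division adds to the supply of cells from blood monocytes. Entry into DNA synthesis depends on E2F transcription factors, which are released when cyclin-dependent kinases phosphorylate the retinoblastoma protein and switch on replication genes. Genes of the later G2 and M phases are switched on by the MuvB complex with B-Myb and FoxM1, and many of their promoters hold a cell cycle genes homology region (CHR) and CCAAT boxes bound by NF-Y.

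The sequences of these promoters are shown because genes of both classes were high together in the members. The last 120 bases before the start of transcription are given 5′ to 3′ in the direction of the gene, from RefSeq on mouse build GRCm38.p6, for 5 genes of G2 and M phase and for the replication gene Mcm6. Top2a encodes the topoisomerase that untangles chromosomes (chr11:99024190-99024309, minus strand). Cdk1 is the mitotic kinase (chr10:69352913-69353032, minus strand) and Ccnb1 its cyclin B1 (chr13:100786487-100786606, minus strand). Plk1 is the polo-like kinase of mitotic entry (chr7:122159315-122159434, plus strand). Ube2c is the ubiquitin carrier of the anaphase promoting complex (chr2:164769809-164769928, plus strand). Mcm6 is a subunit of the replicative helicase (chr1:128359706-128359825, minus strand). Capitals mark matches on either strand to CHR (TTTGAA or TTTAAA), to CCAAT and to 4 E2F words (TTTGGCGC, TTTCCCGC, TTTGGCGG and TTTCGCGC).
Top2a: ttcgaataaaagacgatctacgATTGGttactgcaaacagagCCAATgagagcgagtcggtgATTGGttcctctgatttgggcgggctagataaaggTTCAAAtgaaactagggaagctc
Cdk1: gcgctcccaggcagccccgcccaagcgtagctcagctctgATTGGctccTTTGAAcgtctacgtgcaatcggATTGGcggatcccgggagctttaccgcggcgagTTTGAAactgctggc
Ccnb1: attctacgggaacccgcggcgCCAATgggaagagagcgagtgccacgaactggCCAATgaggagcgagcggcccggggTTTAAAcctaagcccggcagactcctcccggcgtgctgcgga
Plk1: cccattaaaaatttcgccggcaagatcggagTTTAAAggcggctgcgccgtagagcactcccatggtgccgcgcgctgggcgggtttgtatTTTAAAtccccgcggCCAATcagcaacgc
Ube2c: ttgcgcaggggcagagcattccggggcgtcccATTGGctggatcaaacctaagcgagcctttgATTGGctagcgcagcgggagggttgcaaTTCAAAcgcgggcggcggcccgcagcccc
Mcm6: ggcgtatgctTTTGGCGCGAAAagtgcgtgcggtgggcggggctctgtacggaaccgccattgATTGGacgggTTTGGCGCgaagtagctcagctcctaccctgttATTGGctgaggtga
TTTAAA is its own reverse complement, and in Mcm6 the E2F words TTTGGCGC and TTTCGCGC overlap on opposite strands. A CHR match began 23 bases before the start in Top2a, 15 in Cdk1, 42 in Ccnb1, and 29 in both Plk1 and Ube2c. The Mcm6 stretch held no CHR word and had E2F words that began 110, 106 and 47 bases before the start.

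Over the 250 bases before the start, 60 of the 70 genes in the G2/M, spindle and anaphase lists had a RefSeq promoter, and 28.3% of these held a CHR word within the last 100 bases. The share was 9.52% in the G1/S and replication lists and 11.3% among all 27025 genes in the RefSeq table. Of 13994 genes above a small floor of UMIs in the macrophage base, 10655 had a promoter. The CHR share among these base genes was 7.25%. Over all 250 bases a CHR word was in 40% of the G2/M, spindle and anaphase promoters and 26.2% of the G1/S and replication promoters. The same word was in 21.5% of base genes and 28.1% of all. CCAAT was in 68.3% of the G2/M, spindle and anaphase promoters and 59.5% of the G1/S and replication promoters. It was in 40.4% of those of base genes and 37.5% of all. Outside the cycle lists it was in 75% of 8 MHC class II, 50% of 14 lipid-associated and 42.9% of 14 oxidative phosphorylation promoters. An E2F word was in 31.0% of the 42 matched promoters of the G1/S and replication lists and 5% of the G2/M lists. The share was 4.12% of base genes and 2.26% of all. A match of letters is a description of the promoter and does not show that a factor binds there.

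The label was checked against macrophage markers, and the members differed among themselves. A panel of 30 genes was read for RNA of tumour or stromal cells, chosen after the data were seen as the genes highest in barcodes with no Ptprc and under 3 C1q UMIs relative to the base barcodes that were not cycling (Nedd4, Cald1, Hmga2, Sparc, Crabp1 and others). At least 1000 CPM (counts-per-million, the UMIs of a gene or list relative to all UMIs of the same barcodes) of panel RNA were present in 46.1% of control members and 36.1% of sitagliptin members. The other base barcodes reached that level in 27.0% and 23.3%, and barcodes with no Ptprc and little C1q in 88.4% and 81.5%. Cycling T cell barcodes, with at least 3 UMIs of Cd3d, Cd3e and Trac and none of C1q, did in 8.33% and 3.39%. Of the members, 61 control and 138 sitagliptin barcodes lay between 500 and 2000 CPM of the panel.

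Members with little panel RNA carried the macrophage markers. In those under 1000 CPM, C1qa was at 2164 CPM in the control and 1635 CPM in the sitagliptin library, Csf1r at 423 and 404, Cd68 at 294 and 233, Fcgr1 at 193 and 150 and Adgre1 at 55.5 and 56.7. In members at or above 1000 CPM, C1qa was at 411 and 329 CPM, Csf1r at 166 and 145, Cd68 at 71.2 and 60.6, Fcgr1 at 53.5 and 44.3 and Adgre1 at 14.3 and 12.4. All 5 markers were lower in the panel-high members of both libraries. Of the monocyte markers, Vcan was higher there, at 150 and 139 CPM against 19.1 and 15.7 in panel-low members. Plac8 was at 96.1 and 49.0 CPM against 37.6 and 35.9, and Ly6c2 at 44.5 and 33.0 against 28.9 and 22.8. Ccr2 was lower, at 57.3 and 56.3 CPM against 80.7 and 117. C1qa is a gene of the rule, and the panel was chosen in barcodes with under 3 C1q UMIs, so C1q levels do not check the label. Csf1r, Cd68, Fcgr1 and Adgre1 are outside the rule. The median C1q count was 77 and 61 UMIs in panel-low members and 6 and 6 UMIs in panel-high members, of which 72.2% and 81.7% had under 10. A single Ptprc UMI was all that 38.2% and 33.6% of panel-high members had, against 5.72% and 5.69% of panel-low members. Panel-high members were also shallower, with medians of 2976 and 3284 UMIs against 10490 and 11783.5.

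**Figure D1:**
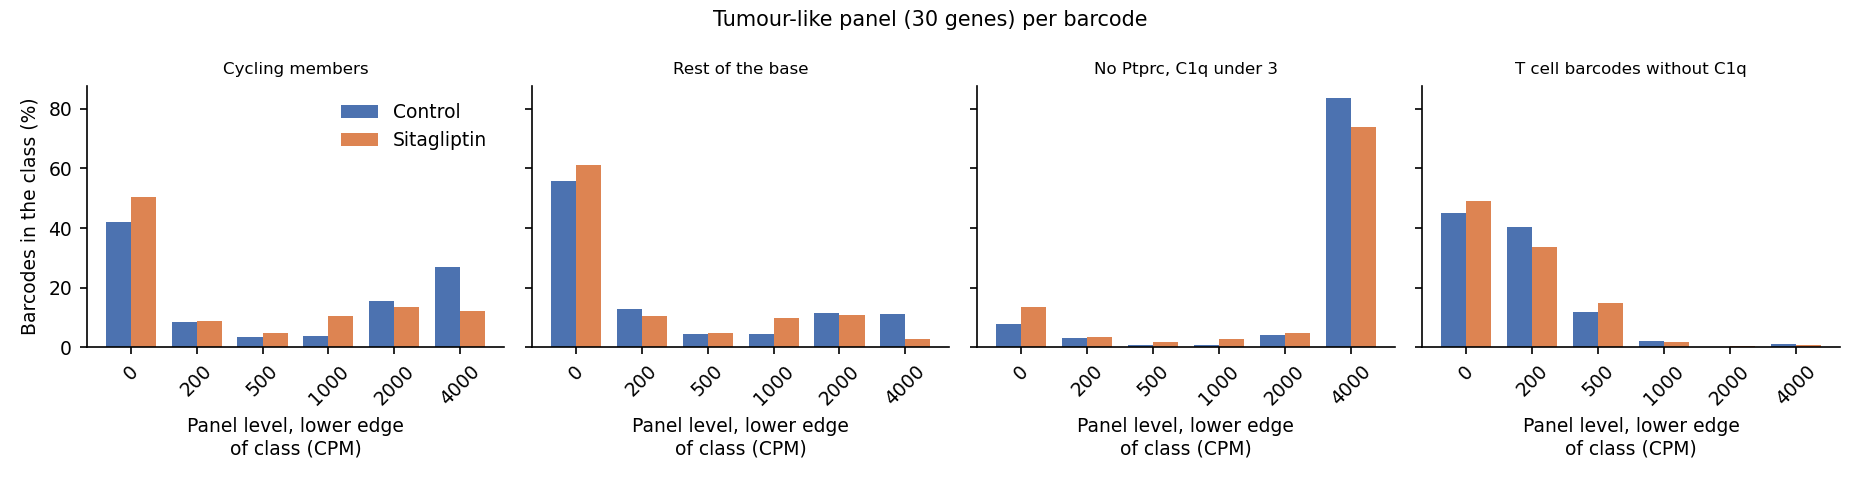
Share of barcodes (%) by summed CPM of the 30-gene tumour-like panel, in classes named by their lower edge, for cycling members, the rest of the base, barcodes with no Ptprc and under 3 C1q UMIs, and T cell barcodes without C1q. Blue is the control and orange the sitagliptin library; the members fill both the lowest and the highest classes, and 46.1% and 36.1% of them lie at 1000 CPM or more.

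C1q UMIs were also found in barcodes outside the base. At least 3 C1q UMIs were present in 32.8% and 44.8% of all barcodes with no Ptprc, at median depths of 7149.5 and 4812 UMIs, and in 22% and 31.4% of those that were cycling. In summed CPM, C1q was 400 and 455 in barcodes with no Ptprc, and 5878 and 4924 in the members. Barcodes with at least 3 UMIs of the T cell genes Cd3d, Cd3e and Trac, which the base leaves out, had 3 C1q UMIs in 62.5% and 49.4%, at 4391 and 3396 CPM of C1q. Summed over Krt8, Krt18, Epcam, Col1a1, Col3a1 and Sparc, 3 UMIs were reached in 21.3% and 19.0% of panel-high and 0.212% and 0.172% of panel-low members. In barcodes with no Ptprc and under 3 C1q UMIs the shares were 58.7% and 56.2%. Sparc is also a panel gene, so the split by the panel fixed part of the contrast between the members in advance. Krt8 and Krt18 had 0 UMIs in panel-high members of both libraries, and Epcam had 0 in those of the sitagliptin library. A longer list of 18 tumour or stromal markers was at 636 and 512 CPM in panel-low members and 410 and 348 CPM in panel-low barcodes that were not cycling. Tagln2, the actin-binding transgelin 2, made up 607 and 485 CPM of the former and 370 and 311 CPM of the latter. The part of free RNA, of mixed droplets or of tumour cells in the members was not tested. The 472 control and 580 sitagliptin panel-low members are called cycling macrophages below, a name for little panel RNA and not for its absence, and panel-low base barcodes that were not cycling are called other macrophages. Cycling shares and the main list ratios are given for all members too. Shares by depth and by programme and the comparison of phases within members were read in panel-low barcodes alone.

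Among all members 12.7% and 8.49% held 3 UMIs of another lineage's markers, against 5.02% and 3.91% of the rest of the base. The highest 6% of doublet scores took in 10.1% and 8.27% of members and 6.08% and 5.95% of the rest. The libraries shared 1 member barcode sequence. Few cycling macrophages held 3 UMIs of another lineage's markers. For T cells this follows in part from the rule, which left out barcodes with Cd3d, Cd3e or Trac. At least 3 UMIs of the T cell markers Cd3g, Trbc2 and Cd2 were present in 1.69% and 0.517% of cycling macrophages. The shares were 1.91% and 0.690% for NK cell, 1.06% and 1.38% for neutrophil, and 1.69% and 0.862% for dendritic cell markers. B cell markers reached 3 UMIs in 0% and 0.172%.

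The rule genes describe the selection and support nothing. Over all members Mki67, the nuclear proliferation antigen, was at 443 and 466 CPM and Top2a at 552 and 542. Cdk1 was at 99.8 and 79.2, Birc5 (survivin, of the chromosomal passenger complex) at 248 and 242 and Ccna2 (cyclin A2) at 200 and 161. At the edge of the rule, 192 control and 177 sitagliptin members had exactly 3 such UMIs, and 343 and 435 base barcodes had 2 and stayed outside. A further 33 and 58 had 3 or more but fewer than 3 per 10000. Members were deeper than the rest of the base, with medians of 7895 and 8832 UMIs against 5237 and 6368.

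In the control library 875 of 3406 base barcodes were cycling, a share of 25.7% (Clopper-Pearson interval 24.2 to 27.2). In the sitagliptin library the share was 20.9% (19.7 to 22.2). The sitagliptin share was 0.814 times the control share (0.751 to 0.883). Panel-low barcodes were cycling in 20.3% (472 of 2320, 18.7 to 22) of the control and 18.1% (580 of 3209, 16.8 to 19.5) of the sitagliptin library, so that the ratio was 0.888 (0.797 to 0.991). When each panel-low barcode was thinned to 2000 UMIs and called at 2 or more rule UMIs, 14.6% and 14.1% were cycling, with a ratio between libraries of 0.965 (0.847 to 1.10). Panel-high barcodes were cycling in 37.1% and 29.0%, which gave 0.782 (0.694 to 0.881). Over the whole base the same thinning and limit of 2 gave 23.4% and 19.9%, a ratio of 0.849 (0.779 to 0.924), and with depth deciles standardised the ratio was 0.745. The library difference was thus smaller in size without panel-high barcodes. The interval of the panel-low ratio held 1 when depth and the limit were changed together, and that of the whole base did not. Over all barcodes of each library the members were 10.1% and 9.29%, a ratio of 0.923 (0.845 to 1.01). Whether the diet or the single library set these shares cannot be told apart.

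**Figure D2:**
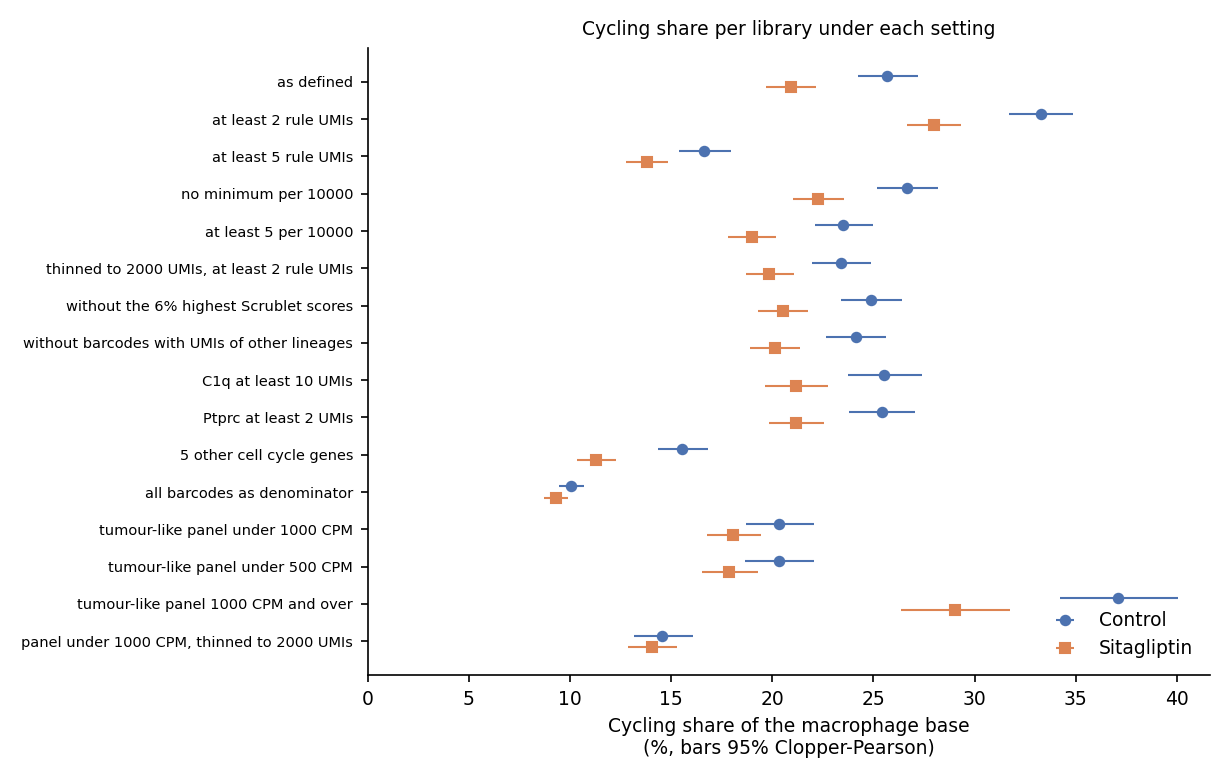
Cycling share of the macrophage base (%, x axis from 0) in the control (blue circles) and sitagliptin (orange squares) library under each setting, with Clopper-Pearson intervals. The sitagliptin value lies left of the control value in each setting drawn, with 25.7% against 20.9% as defined and 14.6% against 14.1% for panel-low barcodes at 2000 UMIs.

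Depth moved with the share. In 4 classes of depth among panel-low base barcodes, the cycling share was 5.82%, 13.1%, 25% and 45.2% in the control library and 9.83%, 10.7%, 14.8% and 33.3% in the sitagliptin library, from the shallowest to the deepest. After thinning to 2000 UMIs the deepest class still had 31.5% and 24.5%, against 7.27% and 12.5% in the shallowest. The share was thus higher in the deepest class than in the shallowest at either depth, and the part of depth in it was not tested. In the shallowest class the sitagliptin share was above the control share at either depth, and in each of the 3 deeper classes it was below.

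Against the rest of the base, the genes of the division machinery stood highest in the members, by a rule that read the same cells, so what follows is a description. Genes were read where they averaged at least 20 CPM over the 4 sums and had at least 100 UMIs. Of 5810 such genes, 583 (10%) were past 1.5-fold higher in both libraries over all members and 107 (1.84%) past 1.5-fold lower. Cycling macrophages against other macrophages gave 417 higher (7.42%) and 80 lower (1.42%) of 5621. Within panel-high barcodes 331 (5.27%) were higher and 316 (5.03%) lower of 6285. A gene read only because it is high in the members had to differ, so list counts below say how many genes were read and are set beside these shares without a further reading. For counts of genes higher or lower in both libraries without the 1.5-fold limit, no share over all genes was taken. The median log2 ratio over all genes read was 0.02 and 0.03 in the panel-low comparison.

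Kinases and cyclins of G2 and M phase were highest. Of 17 genes in the list, 11 were read in the panel-low comparison and 11 were past 1.5-fold higher. Summed over the list, cycling macrophages had 772 CPM in the control and 755 CPM in the sitagliptin library, and other macrophages 86.2 and 83.8, ratios of 8.96 and 9.01. Plk1 was at 70.3 and 53.0 CPM in cycling macrophages and 1.58 and 1.24 in others, ratios of 44.6 (28.7 to 72.9) and 42.9 (29.0 to 66.0). Ccnb1 was at 29.3 and 31.2 CPM against 1.5 and 0.915. Aurka, the centrosomal Aurora kinase, had ratios of 7.56 and 7.80. Over all members the list ratios were 6.29 and 7.45. Panel-high base barcodes outside the members held 349 and 254 CPM of this list, more than other macrophages did.

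Spindle, kinetochore and cytokinesis genes followed. Of 43, 32 were read and 32 were past 1.5-fold higher, with a summed ratio of 8.39 in each library, and 6.21 and 6.84 over all members. Prc1, which bundles midzone microtubules, was at 237 and 254 CPM in cycling and 7.21 and 5.13 CPM in other macrophages, ratios of 32.9 (26.7 to 40.9) and 49.5 (40.8 to 60.4). Nusap1, a spindle microtubule protein, had ratios of 45.8 and 48.0, and Kif11, the motor that separates spindle poles, 44.8 and 31.9. Stmn1, a microtubule destabiliser, was at 914 and 885 CPM against 108 and 84.8, ratios of 8.47 and 10.4. Of the ubiquitin genes that end mitosis, 7 of 10 were read and 5 were past 1.5-fold higher, among them Ube2c at 257 and 202 CPM against 8.78 and 7.83. Pttg1, the securin, was at 34.2 and 29.5 CPM against 33.6 and 30.5, so its ratios were near 1.

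Replication and G1/S genes were higher by less, and other macrophages held more of this RNA, at 504 and 505 CPM of the replication list. In the replication and nucleotide list 17 of 30 genes were read and 17 were past 1.5-fold higher, with summed ratios of 3.98 and 3.83. In the G1/S and origin licensing list 10 of 22 were read and 10 were past 1.5-fold higher, with ratios of 3.44 and 3.60. Over all members the replication list had ratios of 3.26 and 3.31 and the G1/S list 2.89 and 3.21. Rrm2, the cell cycle regulated subunit of ribonucleotide reductase, was at 169 and 154 CPM against 5.41 and 6.50, ratios of 31.3 and 23.6. Pcna, the sliding clamp of DNA polymerase, was at 194 and 209 CPM against 81.7 and 85.6, ratios of 2.38 (2.18 to 2.59) and 2.44 (2.28 to 2.61). Mcm6, from the licensing list, was at 83.2 and 74.2 CPM against 28.4 and 25.6.

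Histone and chromatin genes were the other large group. Of 24 chromatin and condensin genes, 22 were read and 21 were past 1.5-fold higher, with summed ratios of 5.82 and 5.48, and 4.58 and 4.75 over all members. Hist1h1b, a replication-dependent linker histone, was at 2205 and 1857 CPM in cycling macrophages and 31.0 and 32.0 CPM in others, ratios of 71.1 (64.5 to 78.6) and 58.0 (53.7 to 62.6). H2afz, a variant histone made throughout the cycle, had ratios of 2.96 and 2.91. Hmgb2, a chromatin protein of dividing cells, was at 694 and 828 CPM against 136 and 166.

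Transcription factors of the cycle ranged from far higher to level. E2f7, an E2F repressor, was at 19.5 and 24.6 CPM against 1.05 and 0.870, ratios of 18.5 (10.5 to 35.1) and 28.3 (17.6 to 48.1). Its mean was under the limit of 20 CPM for genes read. Foxm1 had ratios of 16.2 and 18.8 and Mybl2, which encodes B-Myb, 11.3 and 9.22. E2f8, a second E2F repressor, was at 45.1 and 49.6 CPM against 4.35 and 4.62. Others stood closer to other macrophages. Tfdp1, the E2F partner DP1, had ratios of 3.24 and 2.29, E2f2 of 2.39 and 2.34, E2f1 of 1.49 and 2.15, E2f3 of 1.57 and 1.66, and Lin54, a MuvB subunit, of 1.34 and 1.22. Myc was past 1.5-fold in neither direction, at ratios of 0.948 and 0.971 here and 1.34 and 1.36 over all members.

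Most cyclin-dependent kinase inhibitors were close to their level in other macrophages. Cdkn1a, which encodes p21, was at 793 and 675 CPM in cycling and 827 and 704 CPM in other macrophages. Cdkn1b, which encodes p27, had ratios of 0.964 and 0.952. Of the 11 of 15 inhibitor and pocket protein genes read, 2 were past 1.5-fold higher and 0 lower, with summed ratios of 0.942 and 0.971, and 0.861 and 0.888 over all members. The higher genes were Cdkn2d (p19), at 69.3 and 59.8 CPM against 17.0 and 16, and Rbl1 (the retinoblastoma relative p107), at 89.5 and 95.2 against 18.9 and 22.6. Among the D cyclins, Ccnd1 was at 248 and 179 CPM against 232 and 199, and its partner kinase Cdk4 had ratios of 1.53 and 1.56. The kinase thus stood past 1.5-fold and its cyclin did not.

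Macrophage identity genes were present at similar or somewhat lower levels in the cycling macrophages. Of 15 identity genes read, 1 was past 1.5-fold higher and 0 lower, with summed ratios of 0.848 and 0.844. The gene was Cx3cr1, the fractalkine receptor, at 88.6 and 90.3 CPM in cycling and 46.5 and 57.7 CPM in other macrophages, ratios of 1.90 (1.68 to 2.15) and 1.56 (1.42 to 1.72). Csf1r had ratios of 0.925 and 0.949. Over all members the identity list had ratios of 0.708 and 0.738, Cx3cr1 of 1.47 and 1.33, and Csf1r of 0.795 and 0.825, so Cx3cr1 passed 1.5-fold in both libraries only without the panel-high barcodes.

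Monocyte genes were lower in the cycling macrophages. Of 12, 9 were read, 9 were lower in both libraries and 5 were past 1.5-fold lower, with summed ratios of 0.691 and 0.715, and 0.667 and 0.681 over all members. Ly6c2, the surface antigen of inflammatory monocytes, was at 28.9 and 22.8 CPM in cycling and 65.2 and 72.1 CPM in other macrophages. Plac8 was at 37.6 and 35.9 CPM against 87.8 and 81.4, and Chil3, the chitinase-like protein Ym1, at 22.6 and 37.0 against 64.3 and 78.4. The median log2 ratio of the 9 genes was -0.85 and -0.76, against 0.02 and 0.03 over all genes read. Ccr2, the receptor that brings monocytes from blood, was nearer, at 80.7 and 117 CPM against 117 and 149. Vcan, a matrix proteoglycan of monocytes, had ratios of 0.555 and 0.435 here and 1.20 and 1.01 over all members.

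**Figure D3:**
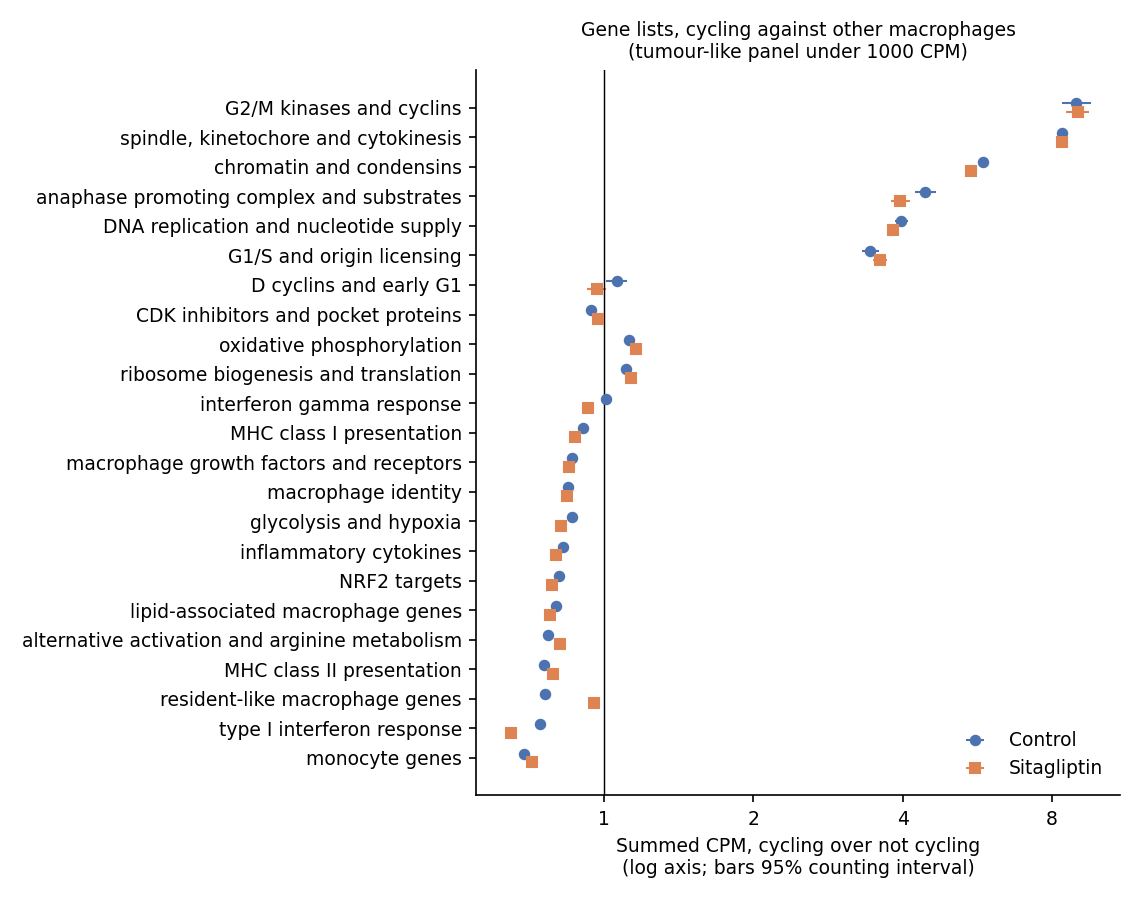
Summed CPM of each gene list in cycling over other macrophages (log axis), panel under 1000 CPM, in the control (blue circles) and sitagliptin (orange squares) library, with counting intervals. The 6 lists from G1/S to anaphase lie between 3.44 and 9.01, D cyclins at 1.06 and 0.967, oxidative phosphorylation just above 1, and monocyte and type I interferon lists lowest.

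Effector programmes of macrophages were lower together, most of them by under 1.5-fold. Lipid-associated genes were lower in both libraries for 17 of 17 read, with summed ratios of 0.799 and 0.780. Spp1, the matrix protein osteopontin, was at 3188 and 1955 CPM against 3779 and 2721. Matrix metalloproteinase 12, Mmp12, was at 237 and 263 CPM against 496 and 517. In the alternative activation list 5 of 10 genes read were past 1.5-fold lower, while Arg1, the arginase of tumour macrophages, was at 2288 and 2207 CPM against 3101 and 2921. Il1b, the cytokine interleukin 1 beta, was at 1887 and 1780 CPM against 2824 and 2427, in an inflammatory list with ratios of 0.825 and 0.801. Over all members the lipid-associated list had ratios of 0.719 and 0.728 and the inflammatory list 0.717 and 0.734.

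Antigen presentation and interferon genes were lower to different degrees. All 10 MHC class II genes read were lower in both libraries and 0 past 1.5-fold, with Cd74, the invariant chain, at 8042 and 6965 CPM against 10727 and 8879. Of 18 type I interferon response genes read, 16 were lower in both libraries and 9 past 1.5-fold, with summed ratios of 0.744 and 0.648 and median log2 ratios of -0.56 and -0.71. Ifit2, which blocks translation of viral RNA, was at 23.2 and 27.6 CPM against 64.8 and 88.3. The interferon gamma response list had ratios of 1.01 and 0.927. Over all members the MHC class II list had 0.670 and 0.703, type I interferon 0.780 and 0.667, and interferon gamma 0.951 and 0.873. In the MHC class I list 16 of 16 genes were read, 9 were lower and 6 higher in both libraries and 0 were past 1.5-fold, with summed ratios of 0.908 and 0.875, and 0.860 and 0.832 over all members. B2m, the light chain of class I molecules, was at 3541 and 3026 CPM against 4142 and 3710. Psmb9, an immunoproteasome subunit, was among the higher genes, at 295 and 213 CPM against 213 and 173.

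Metabolic lists went both ways. Of 18 nuclear genes of oxidative phosphorylation, 18 were read and 16 were higher in both libraries, none past 1.5-fold, with summed ratios of 1.13 and 1.16. The median log2 ratio was 0.16 and 0.20, against 0.02 and 0.03 over all genes read. Cycs, cytochrome c, was at 373 and 425 CPM against 284 and 322. Glycolysis and hypoxia genes were lower in both libraries for 19 of 19 read, with ratios of 0.861 and 0.819. Vegfa, the hypoxia-induced angiogenic factor, had ratios of 0.638 and 0.624, and Gapdh 0.939 and 0.891. Ribosome biogenesis genes were higher in 11 of 12 read, among them Pa2g4, a growth-linked nucleolar protein, at 302 and 348 CPM against 182 and 192. In panel-high barcodes glycolysis had ratios of 1.08 and 1.03, so its lower level was found among panel-low barcodes and over all members (0.886 and 0.845).

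Genes outside these lists were named by size over all members, and only where both libraries had the same direction. The shared direction was thus fixed by the choice. Ly6i, a Ly6 family antigen, was at 16.1 and 14.1 CPM in cycling and 58.9 and 49.1 CPM in other macrophages. Slpi, a secreted protease inhibitor, had ratios of 0.360 and 0.371, and Slfn5, of the interferon-induced schlafen family, 0.307 and 0.321. Kdm5b, a histone H3 lysine 4 demethylase, had ratios of 0.316 (0.238 to 0.414) and 0.189 (0.137 to 0.254). Each of these genes was lower in cycling macrophages.

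The share of cycling barcodes was then read along each macrophage programme. Panel-low base barcodes of each library were split into 3 groups of like size by the level of a list, 773 to 774 barcodes a group in the control and 1069 to 1070 in the sitagliptin library. Along the monocyte genes the cycling share was 28.1%, 22.6% and 10.3% in the control library from the lowest to the highest group, and 23.1%, 21.4% and 9.72% in the sitagliptin library. Thinned to 2000 UMIs the shares were 22.1%, 16.3% and 5.30%, and 17.5%, 15.6% and 9.07%. The highest group was below the lowest in both libraries at either depth.

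Along the macrophage growth factor and receptor genes, among them Csf1r and Csf2rb, the order was the same, with 29.5%, 22.3% and 9.30% in the control and 26.4%, 19.6% and 8.32% in the sitagliptin library. Along oxidative phosphorylation it ran the other way, from 9.06% to 28.2% and from 9.63% to 28.1%, and thinned from 8.15% to 20% and from 9.63% to 20.3%. Along the resident-like genes the share peaked in the middle group, at 25.4% and 21.5%, with 17.2% and 14.6% in the lowest and 18.5% and 18.1% in the highest. The lipid-associated genes had 23%, 24.1% and 14.0%, and 20.7%, 21.7% and 11.8%, and thinned 17.2%, 17.3% and 9.17%, and 17.9%, 16.7% and 7.66%. List levels are shares of each barcode's total, which in members also holds the division RNA. The part of that in these shares was not tested.

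**Figure D4:**
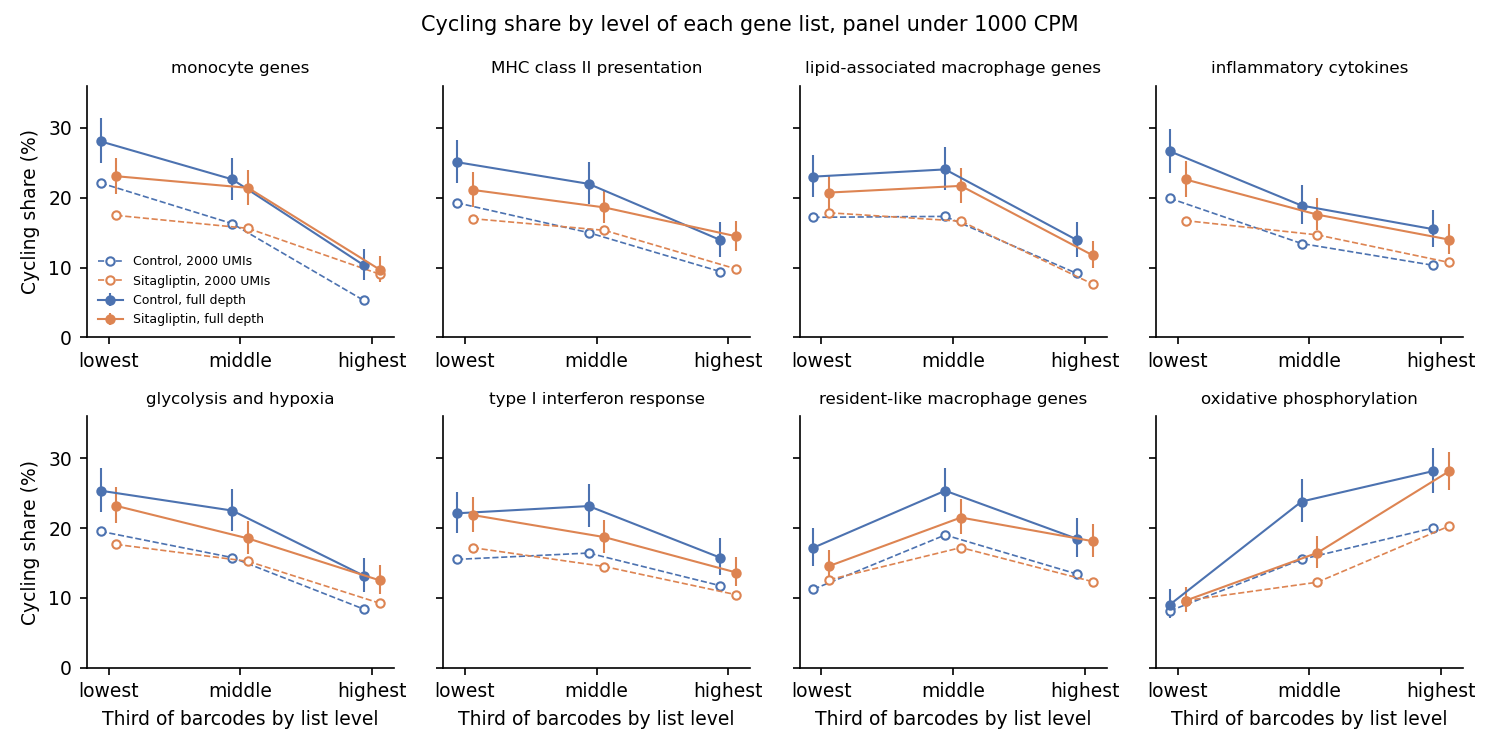
Cycling share (%, mean position with Clopper-Pearson bars) of panel-low base barcodes in the lowest, middle and highest group by level of 8 gene lists, for control (blue) and sitagliptin (orange), at full depth (filled, solid) and thinned to 2000 UMIs (open, dashed, no bars). Monocyte genes fall from 28.1% to 10.3% in the control library, and oxidative phosphorylation goes from 9.06% to 28.2%.

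The phase of the cycle was read from 52 S and 66 G2/M genes. The members had 3102 and 2953 CPM of S genes and 5202 and 4765 CPM of G2/M genes, and the rest of the base 996 and 902, and 775 and 628. The sitagliptin over control ratio in members was 0.952 (0.936 to 0.968) for S and 0.916 (0.904 to 0.929) for G2/M genes. In cycling macrophages the S levels were 3117 and 2979 CPM and the G2/M levels 4988 and 4696 CPM, with a G2/M ratio of 0.941. More G2/M than S UMIs were held by 69.0% and 68.4% of members and by 68.4% and 69.7% of cycling macrophages. The order of the libraries thus differed between these sets. The G2/M list is the longer one, so a lead in raw UMIs follows in part from its length. Within 2 UMIs of equal were 17.0% and 18.4% of members and 5.93% and 9.66% of cycling macrophages. Of 210 and 226 cycling barcodes with at least 3 UMIs of Cd3d, Cd3e and Trac, 48 and 59 held no C1q. These T cell barcodes without C1q had 4178 and 4797 CPM of S genes. Their G2/M genes were at 7901 and 5717 CPM, and both levels were above those of the members. The rule genes act mainly from S phase to mitosis, and the rule does not select for cells in G1.

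Some programmes differed between cycling macrophages with more G2/M UMIs and those with more S UMIs. Barcodes with more G2/M than S RNA had 1.42 times (1.40 to 1.45) and 1.36 times (1.34 to 1.39) the chromatin and condensin RNA of barcodes with more S RNA. Ribosome biogenesis RNA was lower in them, at 0.849 (0.826 to 0.873) and 0.880 (0.859 to 0.902). MHC class I RNA was higher in them, at 1.11 and 1.14, as was type I interferon RNA, at 1.10 and 1.30. Other lists did not share a direction between the libraries. The resident-like list was 1.15 times as high in the control and 0.739 times in the sitagliptin library. Monocyte genes had 0.906 and 1.06, inflammatory cytokines 0.954 and 1.19, and MHC class II genes 0.935 and 1.10.

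Between the libraries, few genes differed within the members. Of 6012 genes read, 41 (0.682%) were past 1.5-fold higher in the sitagliptin library and 51 (0.848%) past 1.5-fold lower. In the rest of the base 27 (0.488%) and 19 (0.343%) of 5532 were. For cycling macrophages the counts were 56 (0.98%) and 49 (0.857%) of 5717, and for other macrophages 33 (0.611%) and 11 (0.204%) of 5404. For panel-high members they were 110 (1.75%) and 139 (2.21%) of 6298, and for panel-high barcodes outside the members 63 (1.01%) and 158 (2.55%) of 6207. The median log2 library ratio over all genes read was -0.04 in cycling and -0.06 in other macrophages. The counts rest on sums of different depth, and their difference between cycling and other macrophages was not tested. For list genes counted below as higher or lower without the 1.5-fold limit, no share over all genes was taken.

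Resident-like genes were higher in the sitagliptin library's cycling macrophages. Of 10 read, 8 were higher and 4 were past 1.5-fold, with 2218 CPM in the control and 2499 CPM in the sitagliptin library in sum, a ratio of 1.13 (1.10 to 1.15). In other macrophages the summed ratio was 0.901 (0.890 to 0.913), and over all members it was 1.21 (1.19 to 1.24). Fcrls, an Fc receptor-like scavenger receptor, was at 57.3 and 108 CPM, a ratio of 1.89 (1.65 to 2.17), and 1.68 in other macrophages. Cbr2, a carbonyl reductase, was at 17.5 and 40.4 CPM, a ratio of 2.30 (1.81 to 2.96), and 1.40 in other macrophages. Mrc1, the mannose receptor CD206, was at 617 and 865 CPM, a ratio of 1.40 (1.34 to 1.46), and 1.11 in other macrophages. Mgl2, the lectin CD301b, was at 88.8 and 158 CPM, with ratios of 1.78 and 1.28. Mrc1 belongs to the identity and alternative activation lists and the other genes to the resident-like list. For these 4 genes the library ratio was above 1 in both sets and larger in the cycling set, a difference for which there is no test. In panel-high members the log2 ratio of Cbr2 was -1.01. The resident-like list had library ratios of 1.15 in panel-high members and 1.25 in panel-high barcodes outside the members.

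Spp1, Cxcl3, Ccl2 and most MHC class I genes were lower in the sitagliptin library's cycling macrophages. Spp1 had a ratio of 0.613 (0.6 to 0.627) in cycling and 0.720 (0.712 to 0.729) in other macrophages. Cxcl3, a neutrophil-attracting chemokine, was at 107 and 58.9 CPM in cycling macrophages, a ratio of 0.549 (0.482 to 0.625), and 0.725 in others. Ccl2, which attracts monocytes, was at 1470 and 988 CPM, with ratios of 0.672 and 0.798. Both belong to the inflammatory list, in which 13 of 14 genes read were lower, with a summed ratio of 0.882 (0.872 to 0.891) in cycling and 0.908 in other macrophages. Not all chemokines were lower. Ccl24, an eosinophil attractant, was at 15.7 and 30.2 CPM, a ratio of 1.92 (1.48 to 2.51), and Ccl8, of the resident-like list, at 353 and 423 CPM, a ratio of 1.20 (1.13 to 1.27). Of 16 MHC class I presentation genes 14 were lower, with a summed ratio of 0.833 (0.823 to 0.844), against 0.865 in other macrophages. Type I interferon genes had 0.882 (0.855 to 0.911) in cycling and 1.01 (0.997 to 1.03) in other macrophages.

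**Figure D5:**
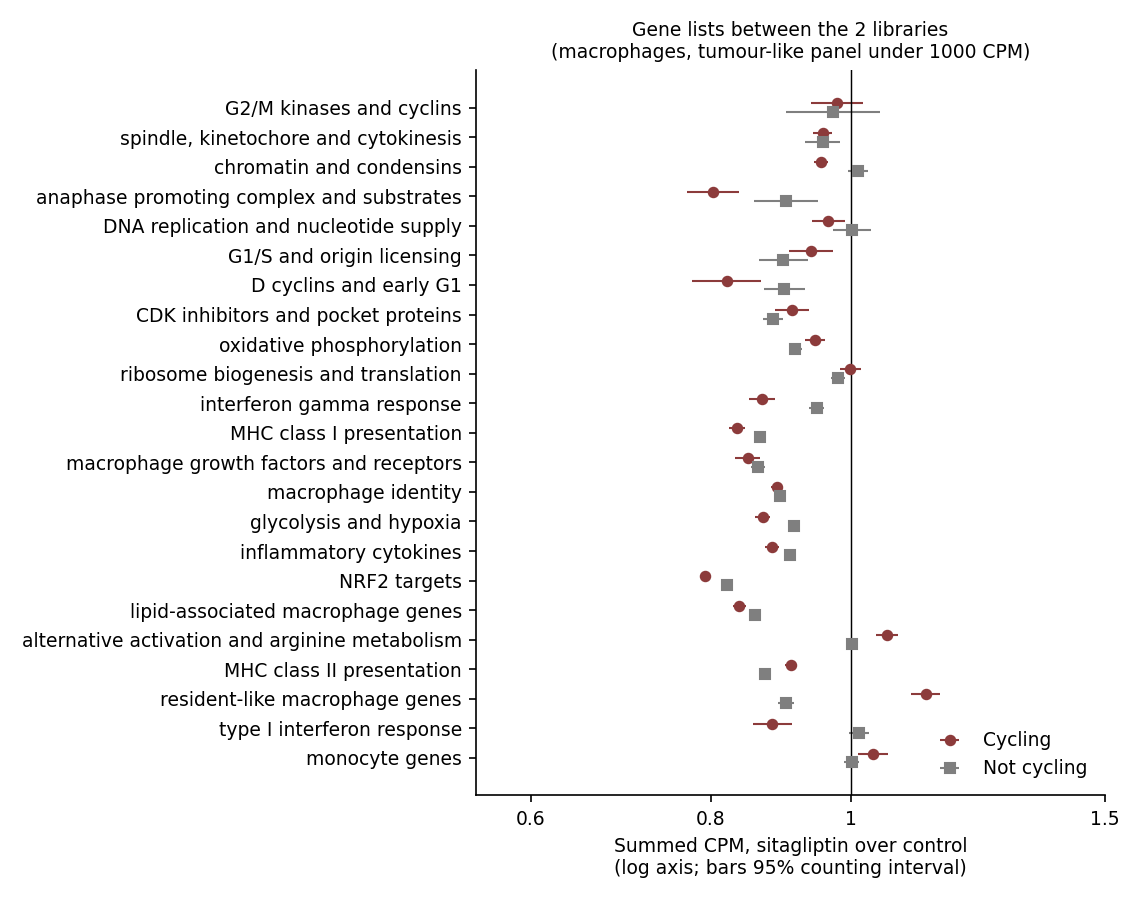
Summed CPM of each gene list in the sitagliptin over the control library (log axis), for cycling (red circles) and other (grey squares) macrophages with the panel under 1000 CPM, with counting intervals. The resident-like list lies at 1.13 in cycling and 0.901 in other macrophages, the anaphase list at 0.802 and 0.902, and D cyclins at 0.820 and 0.899.

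Most division lists had library ratios near 1, and the anaphase and D cyclin lists were lower. In cycling macrophages the summed ratios were 0.978 for G2/M kinases, 0.956 for spindle genes, 0.965 for replication and 0.939 for G1/S. The anaphase promoting complex list had 0.802 (0.770 to 0.836), with 8 of 8 genes read lower in the sitagliptin library. Cdc20, the activator of that complex, was at 17.5 and 9.14 CPM, a ratio of 0.522 (0.373 to 0.727). Its mean was under the limit of 20 CPM, so it was not among the 8 genes read. Ube2c had 0.784 (0.727 to 0.846) and Ube2s, which extends the ubiquitin chains, was at 280 and 206 CPM, a ratio of 0.736 (0.683 to 0.792). Plk1, from the kinase list, had 0.755 (0.651 to 0.875). In other macrophages the anaphase list had 0.902 (0.857 to 0.949), and over all members 0.806 (0.780 to 0.834). The D cyclin and early G1 list had 0.820 (0.776 to 0.867) in cycling and 0.899 (0.870 to 0.930) in other macrophages, with 4 of 5 genes lower in cycling macrophages. Over all members it had 0.878 (0.843 to 0.914), and in panel-high members 1.08 (1.02 to 1.14), so its direction there was the opposite.

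Genes named by size included some that differed as much outside the members. Cdk8, the mediator kinase, was at 612 and 1485 CPM in cycling and 905 and 1895 CPM in other macrophages, library ratios of 2.43 and 2.09. Zbed5, a domesticated transposase gene, was at 0.394 and 131 CPM in cycling and 0.901 and 120 CPM in other macrophages, from 2 and 12 UMIs in the control library. Over all members it had 7 and 1332 UMIs, a ratio of 152 (73.6 to 379). Klf2, a quiescence-linked transcription factor, was at 128 and 70.6 CPM in cycling macrophages, a ratio of 0.552 (0.490 to 0.621), and 0.758 in others. Ifitm1, an interferon-induced membrane protein, was at 233 and 110 CPM, with ratios of 0.471 and 0.625. Gzmb, granzyme B of cytotoxic lymphocytes, was at 117 and 46.8 CPM in cycling and 51.7 and 20.6 CPM in other macrophages, and NK cell markers in sum at 192 and 88.7 CPM against 99.8 and 54.6. Among all members without barcodes that held 3 UMIs of another lineage's markers, the log2 library ratio of Gzmb was 0.10, so its lower level in the sitagliptin library was not found without them. Ccn1, Cavin3 and Pcolce, which were lower in the sitagliptin library over all members, belong to the tumour-like panel, and the panel itself was at 118 and 110 CPM in cycling macrophages and at 6758 and 6374 CPM in panel-high members.

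The peptidase that sitagliptin inhibits was hardly read. Dpp4 was at 2.56 and 3.23 CPM in cycling and 4.88 and 3.71 CPM in other macrophages, too low to compare. Of its 8-gene family, 3 genes were read, with summed ratios of cycling to other macrophages of 1.01 and 0.995. The cytosolic relative Dpp8 was at 44.9 and 46.4 CPM against 50.5 and 49.2.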

How the data were processed

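The deposited matrices hold raw UMI counts per gene and barcode, per the file headers, for 32285 gene IDs. Feature and barcode files give names and hold no measurement (other). The library kit was SeekOne DD 5′, per the labels. The labels and headers used here name no aligner, genome build or annotation. By value, the lowest deposited barcode total was 2001 UMIs, and totals were 64139749 and 76788699. Counts were summed per library and set and scaled to CPM; ratios have exact conditional binomial intervals, levels exact Poisson and shares Clopper-Pearson intervals (95%). The ratio calculation was tested on simulated data with known changes, which checks the arithmetic and says nothing of the diets. Genes sharing reads with near-identical copies (histones, Gzmb) are uncertain. Named genes were the 12 highest and 12 lowest ratios per comparison, with the genes of the lists. For members against the rest, only genes with the same direction in both libraries were ranked. Gm, Rik, mitochondrial, ribosomal protein, antigen receptor and sex-linked marker genes were left out. Members and lists were chosen with earlier results of these data known, and the tumour-like panel and its 1000 CPM limit after the data were seen. Scrublet (scanpy 1.11.5) marked 0 barcodes at its automatic threshold, so doublets stayed in, and the top 6% of scores were removed as an alternative. The libraries shared 132 barcode sequences, 24 in the base and 1 among members. Python 3.11.15, numpy 2.4.6, scipy 1.17.1, pandas 2.3.3 and matplotlib 3.10.9 were used.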

Additional observations from a re-analysis of the deposited data

How the results depend on the processing

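No paired analysis was possible because each diet had 1 library, and no replicate could be left out. The sitagliptin over control ratio of the cycling share was 0.814 and was below 1 in each setting run over a whole set of barcodes; within the shallowest depth class of panel-low barcodes the sitagliptin share was the higher one (9.83% against 5.82%). It was 0.726 with 5 other cell cycle genes, 0.745 with depth deciles standardised, 0.923 over all barcodes, 0.888 with the tumour-like panel under 1000 CPM and 0.965 with that and thinning. Settings that use the panel were chosen after the data were seen.

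Counts of genes past 1.5-fold (583 higher and 107 lower in members, 41 and 51 between libraries) became 304, 19, 8 and 7 at 2-fold, 1210, 168, 112 and 195 at a mean of 5 CPM, 110, 35, 14 and 5 at 100 CPM, and 331, 316, 110 and 139 in panel-high barcodes. Genes lower in members numbered 49 by the mean of per-barcode CPM, 55 without barcodes of other lineages and 167 at 5 rule UMIs. Genes lower in the sitagliptin library numbered 125 by per-barcode CPM and 146 with depth standardised.

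The S ratio of 0.952 became 0.913 by per-barcode CPM and 0.915 with depth standardised. The G2/M ratio of 0.916 became 0.898 and 0.857 under these, 0.952 without the highest Scrublet scores, 0.941 and 0.947 with the panel under 1000 and 500 CPM, and 0.884 in panel-high barcodes.

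Directions that turned were those of NK markers in members (0.952 without other lineages, 0.812 in panel-high barcodes) and of Gzmb between libraries (log2 0.10 without other lineages). With the panel under 1000 CPM the member log2 ratios of Cavin3 (-0.14), Ccn1 (-0.10), Fstl1 (-0.26), Klra4 (-0.26), Sparc (-0.19) and Tafa1 (-0.10) fell below 0, and the log2 library ratio of Timp3 went above 0, to 0.17. Under 500 CPM these log2 values were -0.056 for Cald1, -0.20 for Cavin3, -0.19 for Fstl1, -0.18 for Klra4, -0.10 for Sparc and 0.51 for Timp3. In panel-high barcodes the log2 library ratio of Cbr2 was -1.01, and the member log2 ratios were -0.89 for Gzmb and -0.23 for Tafa1. The cause was not tested. Of 1701 gene values under the alternatives 17 turned, and a further 894 moved in size without turning. Of 970 list values 2 turned and a further 610 moved. With 1 library per diet, no setting bears on the spread between animals.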

Other observations

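Stress and iron genes were read in cycling and other macrophages with little tumour-like RNA. The list of NRF2 targets, genes of the oxidative stress response, had summed ratios of 0.812 in the control and 0.784 in the sitagliptin library, with 8 of 13 genes read lower in both and 3 higher in both. Hmox1, the heme oxygenase, was at 63.0 and 53.0 CPM in cycling and 99.8 and 97.5 CPM in other macrophages. Gclm, a subunit of the enzyme that begins glutathione synthesis, had ratios of 1.36 and 1.40. The 2 genes of this list thus lay on opposite sides of 1.

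Endoplasmic reticulum stress genes had summed ratios of 0.951 and 1.03, with 0 of 12 genes read past 1.5-fold. Immediate early genes had 0.944 and 0.881, with 0 of 17. Complement genes had 0.899 and 0.897, with 0 of 6. None of these 3 lists held a gene past 1.5-fold in both libraries.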
